A study of Arabidopsis thaliana with 6 samples.

Results

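GH3.3 and WES1 (also called GH3.5) are Arabidopsis thaliana genes for enzymes that join the plant hormone auxin to amino acids. Both members of the pair were chosen by name, as the probe sets that the platform annotation assigns to 1 gene each. The choice was made with earlier results of these data known, so their p-values and places among all probe sets are not those of independently chosen genes. This gave 2 probe sets, 1 for GH3.3 (AT2G23170) and 1 for WES1 (AT4G27260), of 22746 probe sets on the array without its controls. The values are Affymetrix MAS5 signals, on a linear scale in arbitrary units, of leaf RNA from Col-0 plants aged 28 days and grown in sterile glass jars. Leaves sprayed with 1.6 mM Tween 20, a non-ionic detergent, were set against leaves sprayed with distilled water, at 2.5 h in experiment II and at 1 h in experiments IA and IB, which the series' design text calls biological repetitions. Each experiment gave 1 Tween array and 1 water array, each carrying RNA pooled from 3 extracts, so there were 6 arrays in 3 pairs, and precision is limited by that small number. Groups were taken from the sample titles. The treatment text of the labels went against them in places, since it named water for the Tween samples too and 2.5 h for both samples of IA.

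Auxin, chiefly indole-3-acetic acid, controls growth and patterning, and plant cells keep its free level in bounds by making it, moving it, oxidising it and joining it to amino acids or sugars. The GH3 proteins are acyl acid amido synthetases. Those of the group to which GH3.3 and WES1 belong conjugate indole-3-acetic acid, and their transcripts are known as early auxin-response transcripts, so that conjugation acts as a feedback on the hormone. WES1 is also known to act on salicylic acid and to take part in stress and pathogen responses, and both genes have been linked to jasmonate homeostasis during adventitious rooting.

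GH3.3 was higher with Tween 20 in all 3 pairs, and more so after 1 h than after 2.5 h in these arrays. In IA its signal was 84.1 units with Tween 20, against 21.8 units with water, a 3.86-fold difference. In IB it was 60.2 units with Tween 20 and 29.3 units with water (2.05-fold), and in II it was 60.8 units with Tween 20 and 36.9 units with water (1.65-fold). The Tween and water arrays did not overlap: the lowest Tween signal lay 23.3 units above the highest water signal. Such a gap was found in 654 of the 14345 tested probe sets (4.56%), those that reached the 40th percentile of their array on at least 2 of the 6 arrays. GH3.3 reached it on 5 arrays, and its water signal in IA lay just under it (22.1 units), which makes the IA fold the least certain of the 3.

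**Figure D1:**
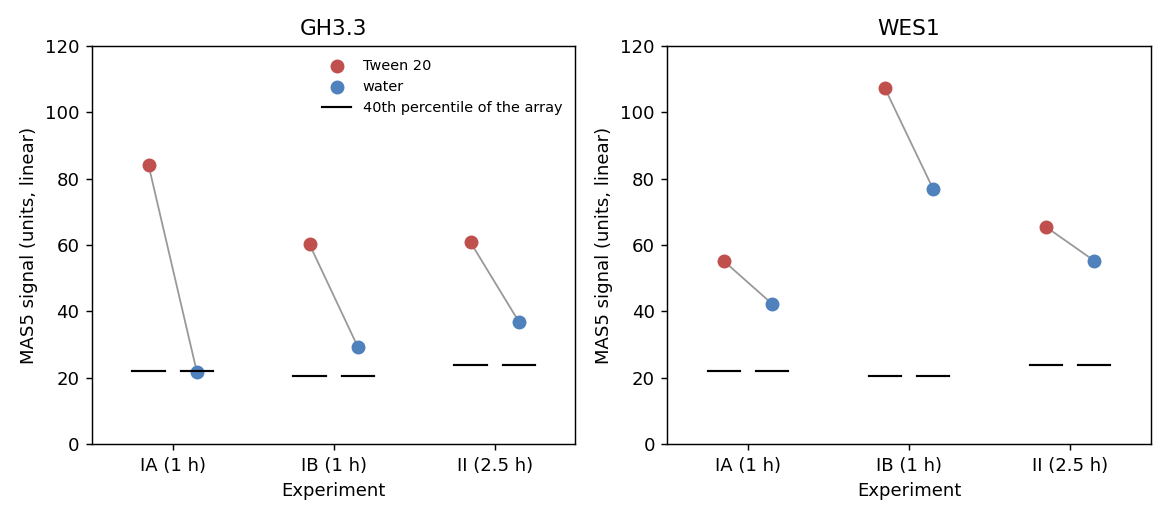
MAS5 signal in units (linear axis from 0) of GH3.3 and WES1 on each of the 6 arrays, with the Tween 20 and water arrays of an experiment joined by a line and the 40th percentile of each array as a black bar. Every GH3.3 point with Tween 20 lies above every GH3.3 point with water, while the WES1 points overlap between treatments and are highest in IB, at 107.3 units with Tween 20 and 76.9 units with water.

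Over the 3 experiments the log2 fold of GH3.3 was 1.24 ± 0.23 (SE of the fit, 95% interval 0.68 to 1.79), or 2.36-fold. This SE rests mostly on the spread of all tested probe sets, with 5.03 prior against 2 residual degrees of freedom. In limma's moderated test with the experiment as a block, GH3.3 had an unadjusted p of 0.00112. Its Benjamini-Hochberg adjusted p over all tested probe sets was 0.0673, so it did not pass at 0.05. It stood at rank 238 by the size of the statistic, while 161 probe sets passed (1.12% of those tested), 146 of them higher with Tween 20 (1.02%). At 1 h alone the log2 fold was 1.49 ± 0.64 (SD, n = 2), or 2.81-fold, with a limma adjusted p of 0.111. In that test 0 of the 14345 probe sets passed (0.0%), and 931 had an unadjusted p under 0.05 with a higher signal (6.49%), GH3.3 among them. Without IB the estimate over the other 2 experiments was 1.33 and the limma adjusted p was 0.0175, which passes. In that fit 730 of the 14345 probe sets passed, against 161 with all 3 experiments, so the pass was not particular to GH3.3. Without IA the estimate was 0.88 with a limma adjusted p of 0.152, and 0 probe sets passed.

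By the 2-fold criterion that the study used, GH3.3 counted as higher in both IA and IB. This was met by 109 of the 13593 probe sets whose brighter signal reached the 40th percentile in both pairs (0.802%). In single pairs the 2-fold mark was passed by 4.15% of probe sets in IA and 1.84% in IB. In II, where 1.17% passed it, GH3.3 stayed below. It is therefore not one of the 29 probe sets that were 2-fold higher in all 3 pairs (0.218%).

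WES1 was higher with Tween 20 in all 3 pairs as well, by less than GH3.3 in each. Its signal in IA was 55.2 units with Tween 20, against 42.3 units with water (1.305-fold). In IB it was 107.3 units with Tween 20 and 76.9 units with water (1.40-fold), and in II it was 65.5 units with Tween 20 and 55.3 units with water (1.18-fold). The treatments overlapped across experiments, since the Tween signal in IA was below the water signal in IB, and the difference was visible only within pairs. A signal above water in all 3 pairs was found for 2185 of the 14345 tested probe sets (15.2%). All 6 WES1 signals lay above the 40th percentile of their array.

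The log2 fold of WES1 over the 3 experiments was 0.37 ± 0.12 (SE, 95% interval 0.08 to 0.66), or 1.29-fold. limma's unadjusted p was 0.0182 and its adjusted p 0.214. An unadjusted p under 0.05 with a higher signal was found for 8.17% of tested probe sets. At 1 h the log2 fold was 0.43 ± 0.07 (SD, n = 2), with a limma adjusted p of 0.383. WES1 was 2-fold different in none of the pairs IA, IB and II. With the experiment not used as a block, the estimate kept its value of 0.37 but its SE was 0.31 and its limma adjusted p 1.00, against an SE of 0.25 and a limma adjusted p of 0.445 for GH3.3.

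**Figure D2:**
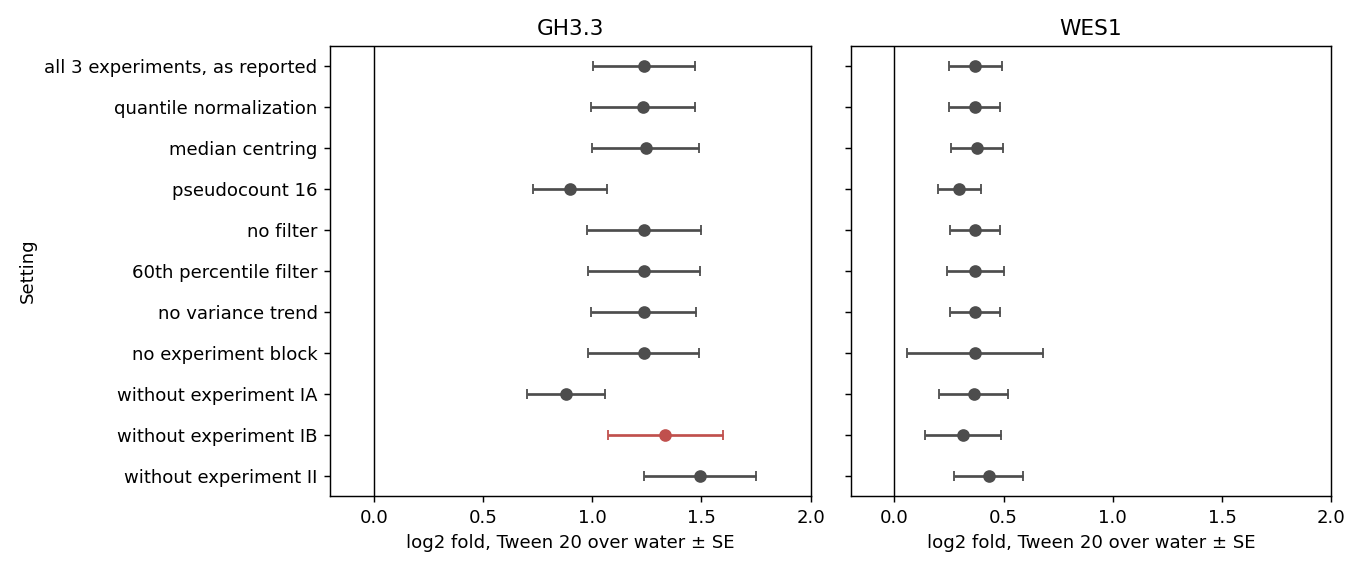
Estimated log2 fold, Tween 20 over water, of GH3.3 and WES1 over the 3 experiments, as reported and under each alternative way of processing or with 1 experiment left out. Points are estimates, bars are the SE of the limma fit, and the red point (GH3.3 without IB, adjusted p = 0.0175) is the one that passed at 0.05.

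The members were set against each other by their folds within the same arrays, since signals of different probe sets are not comparable. The log2 fold of GH3.3 exceeded that of WES1 by 1.56 (IA), 0.56 (IB) and 0.48 (II), giving a mean of 0.87 ± 0.61 (SD, n = 3). The sign was the same in 3 of 3 experiments, and the exact two-sided sign-flip permutation test gave p = 0.25, the smallest value that 3 pairs allow. The GH3.3 fold lay above those of 99.2% (IA), 98.3% (IB) and 97.0% (II) of tested probe sets. The WES1 fold lay above those of 87.0% (IA), 91.9% (IB) and 82.0% (II). The median log2 fold of tested probe sets was close to 0 in each pair, at -0.08, -0.03 and -0.02 for IA, IB and II, and the SD of those folds was 0.51, 0.38 and 0.33.

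**Figure D3:**
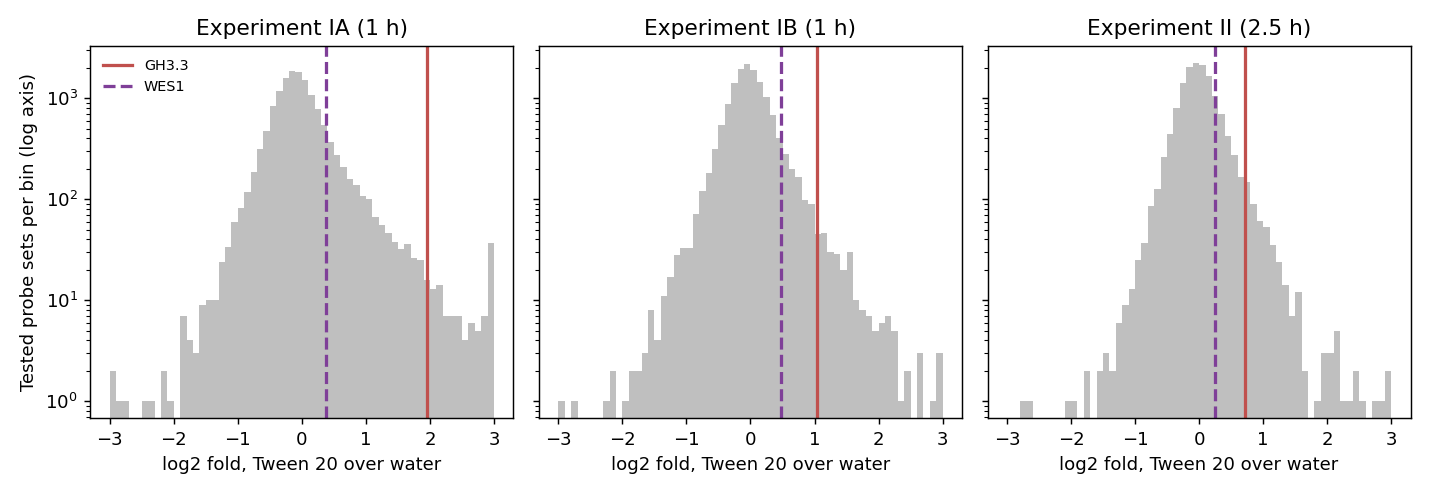
Histograms of the log2 fold, Tween 20 over water, of all 14345 tested probe sets in each pair (count axis on a log scale, values beyond ±3 placed in the end bins), with GH3.3 as a solid red line and WES1 as a dashed purple line. GH3.3 lies in the upper tail in each pair, above 97.0% or more of the probe sets, and WES1 on the upper shoulder.

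What differed between experiments was not the same for the 2 genes. For GH3.3 the water and Tween signals moved in opposite directions. Relative to IA, its signal in IB was 1.40-fold lower with Tween 20 and 1.34-fold higher with water, and its mean log2 signal per pair was 5.42, 5.39 and 5.57 for IA, IB and II. That is a range of 0.17, and 9.77% of tested probe sets had a smaller one. WES1 moved with the experiment in both treatments, being 1.94-fold higher in IB than in IA with Tween 20 and 1.82-fold higher with water. Its mean log2 signal per pair was 5.59, 6.51 and 5.91 for IA, IB and II, a range of 0.91, and 85.1% of tested probe sets had a smaller one. Both 1 h differences between IB and IA exceeded the 1.29-fold estimate for Tween 20 itself.

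The later collection gave smaller folds for both genes, without a difference between times that passed a test. At 2.5 h the log2 fold of GH3.3 was 0.72, against a mean of 1.49 at 1 h, a difference of -0.77 ± 0.45 (SE, 95% interval -1.87 to 0.33, limma adjusted p = 0.998). For WES1 it was 0.24 at 2.5 h, against 0.43 at 1 h, a difference of -0.19 ± 0.28 (SE, 95% interval -0.87 to 0.49, limma adjusted p = 0.998). In these fits the spread of the 1 h pairs, with 1 residual degree of freedom, stands for that of the single 2.5 h pair. limma's moderation adds 4.8 prior degrees of freedom taken from all tested probe sets, so the SEs rest mostly on those. Time cannot be told apart from experiment II. limma passed 0 of 14345 probe sets for the difference (0.0%). At an unadjusted p under 0.05 the Tween fold was smaller at 2.5 h than at 1 h for 186 probe sets (1.3%), the direction of both members, and larger for 170 (1.19%). GH3.3 and WES1 were not among them, with an unadjusted p of 0.135 and 0.522. For the 2.5 h effect alone limma also passed 0 (0.0%), with 377 higher with Tween 20 at an unadjusted p under 0.05 (2.63%). Folds that were above 0 and fell in size over IA, IB and II, as those of GH3.3 did, were found for 3.23% of tested probe sets. With IB as the only 1 h pair the difference for GH3.3 shrank to -0.32, and with IA alone it was -1.23.

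GH3.3 was also higher in the water array at 2.5 h than in the water arrays at 1 h. Its water signal was 36.9 units at 2.5 h, against 21.8 and 29.3 units at 1 h, or 1.46-fold higher, while its Tween signal was 60.8 units at 2.5 h, against 84.1 and 60.2 units at 1 h, or 1.17-fold lower. The smaller GH3.3 fold at 2.5 h thus came with a higher water signal more than with a lower Tween signal. The water signal of WES1 was 55.3 units at 2.5 h, inside the span of 42.3 and 76.9 units at 1 h. Only 1 water array was made at 2.5 h, so these are values without a test, and time cannot be told apart from experiment II. The GH3.3 water signal already differed 1.34-fold between IA and IB, both at 1 h. In bulk leaf RNA, fewer cells of a type and less RNA per cell cannot be told apart.

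Of 20 GH3 family entries, 11 had a name that the RefSeq gene table of assembly TAIR10.1 bears out and 5 of these had a probe set of 1 gene. The other entries were not analysed here. Besides the pair, GH3.17, an amido synthetase known to join indole-3-acetic acid to glutamate, was the 1 further member bright enough to be tested. Its signal was 25.4, 29.5 and 37.8 units with Tween 20 in IA, IB and II, against 40.7, 33.3 and 35.1 units with water, so it was lower with Tween 20 in both 1 h pairs and slightly higher in II. Its log2 fold over the 3 experiments was -0.25 ± 0.19 (SE, limma adjusted p = 0.574), on the other side of 0 from those of GH3.3 and WES1. GH3.9 had signals of 12.3, 19.5 and 14.6 units with Tween 20 and 10.9, 23.7 and 18.7 units with water, above the 40th percentile on 1 array only. GH3.1, another auxin-conjugating enzyme, had 0.5, 1.3 and 1.0 units with Tween 20 and 4.4, 6.4 and 2.5 units with water. At that brightness no fold can be read for GH3.1 or GH3.9.

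In the 8 lists of auxin and salicylate genes, GH3 included, 26 of 160 entries had a usable probe set and 10 of these were tested. None of the 10 passed limma's test after adjustment over all tested probe sets in either direction, against 1.12% of all tested probe sets. An unadjusted p under 0.05 with a higher signal was found for GH3.3 and WES1 themselves and for 2 of the 8 others, SAG101 and UGT76B1, against 8.17% of all tested probe sets. Of those 8, 5 had an estimate above 0, against 41.1% of all tested probe sets, and their median log2 fold was 0.19, against -0.04 over all tested probe sets. The lists of auxin receptors and of auxin response factors had no usable probe set, and the transport list had only WAG2, a kinase that acts on auxin efflux carriers, with signals between 3.9 and 15.1 units and no test.

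IAGLU, UGT74D1 and YUC2, the tested genes that make auxin or handle it by other routes, had smaller log2 estimates than GH3.3. So did 99.2% of all tested probe sets, and the difference was not tested. IAGLU, which esterifies indole-3-acetic acid with glucose, had 391.7, 271.3 and 174.7 units with Tween 20 in IA, IB and II, against 179.2, 252.0 and 169.5 units with water. It was thus more than 2-fold higher in IA (log2 1.13) and near water in IB and II (0.11 and 0.04), with a log2 estimate of 0.43 ± 0.21 (SE, limma adjusted p = 0.389). UGT74D1, a glucosyltransferase of auxins, was at -0.20, -0.41 and 0.30 log2. UGT84B1 and UGT84B2 were too dim to test, with no signal above 6.1 units. Of the synthesis genes, YUC2, a flavin monooxygenase of the main auxin pathway, stood at 0.08, 0.67 and -0.02 log2 over the same pairs (estimate 0.24 ± 0.17, limma adjusted p = 0.529), and YUC4, YUC6 and YUC11 were too dim, with no signal above 8.8 units.

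Of the early auxin-response genes 2 could be tested, and neither passed. IAA18, an Aux/IAA repressor of auxin signalling, stood at -0.20 (IA), -0.21 (IB) and 0.07 log2 (II), and HAT2, a homeodomain-leucine zipper factor known as an early auxin-response gene, at 0.12, 0.40 and -0.09. Their limma adjusted p was 0.703 and 0.662. The other 6 early genes with a probe set, of 29 in the list, had no signal above 22.6 units and were not tested.

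On the salicylate side, which concerns WES1, 2 of the 23 list entries were tested. SAG101, a partner of EDS1 in immune signalling, had 44.9, 58.7 and 34.0 units with Tween 20 in IA, IB and II and 25.8, 35.1 and 20.6 units with water. Its log2 folds of 0.80, 0.74 and 0.72 lay close together, with an estimate of 0.75 ± 0.14 (SE) and a limma adjusted p of 0.0669, which does not pass. Its water signal in II lay below the 40th percentile. UGT76B1, a glucosyltransferase of isoleucic acid and salicylic acid, was at 1.13, 0.28 and 0.49 (estimate 0.63 ± 0.24, limma adjusted p = 0.276), and its water signal in IA and both its signals in II lay below the 40th percentile. BSMT1, a methyltransferase of salicylic and benzoic acid, and UGT74F1, a salicylate glucosyltransferase, were too dim to test.

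**Figure D4:**
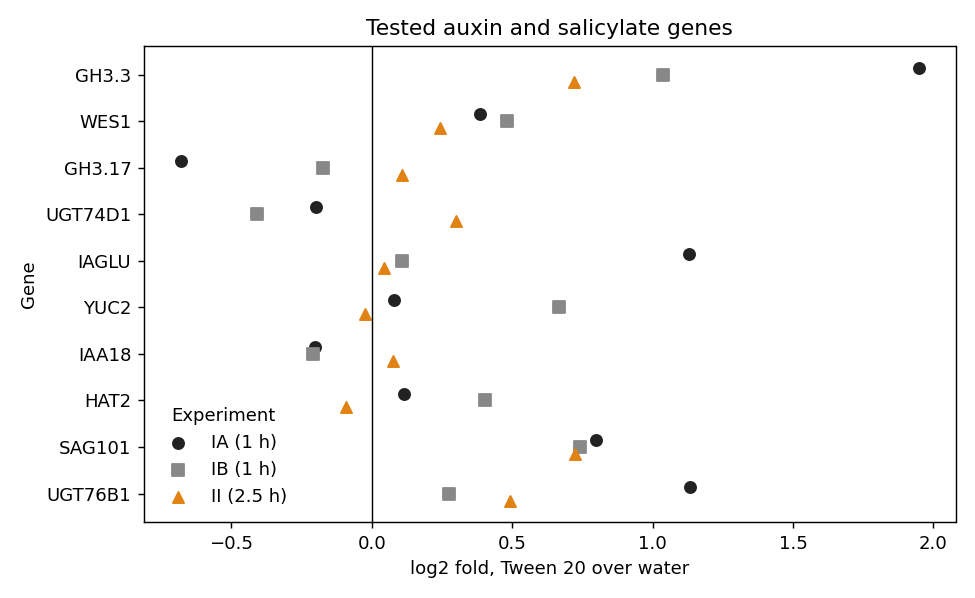
Log2 fold, Tween 20 over water, in IA, IB (both 1 h) and II (2.5 h) of the 10 tested genes of the auxin and salicylate lists, 1 point per pair and the vertical line at no difference. GH3.3, WES1, IAGLU, SAG101 and UGT76B1 lie right of the line in all 3 pairs, with GH3.3 in IA furthest right at 1.95, while GH3.17, UGT74D1 and IAA18 lie left of it in both 1 h pairs.

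GH3.3 and WES1 were not close to each other in their course over the 6 arrays, with Pearson's r = 0.38 and Spearman's rho = 0.14 between their log2 signals, given as a description because the arrays come in pairs from 3 experiments. By this measure 1199 of 7737 other tested probe sets with 1 gene were closer to GH3.3 than WES1 was. The 5 closest to GH3.3 were AT3G59660, AT3G53670, AT4G12070, AT1G69890 and AT2G38870, with r between 0.96 and 0.98. Being chosen for their course over these arrays, they are described without a test. AT2G38870 had 1906.5, 1913.2 and 1667.6 units with Tween 20 and 662.9, 946.2 and 919.0 units with water, with a log2 estimate of 1.13 ± 0.13 (SE). The other 4 had log2 estimates between 0.39 and 0.68.

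The 5 genes closest to WES1 were AT5G03050, AT2G36320, AT2G17975, AT1G30890 and CYB-1, a cytochrome b561, with r between 0.98 and 0.99. They were chosen in the same way and are likewise given without a test. AT2G36320 had 161.1, 293.0 and 183.9 units with Tween 20 in IA, IB and II and 106.4, 219.3 and 165.8 units with water.

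**Figure D5:**
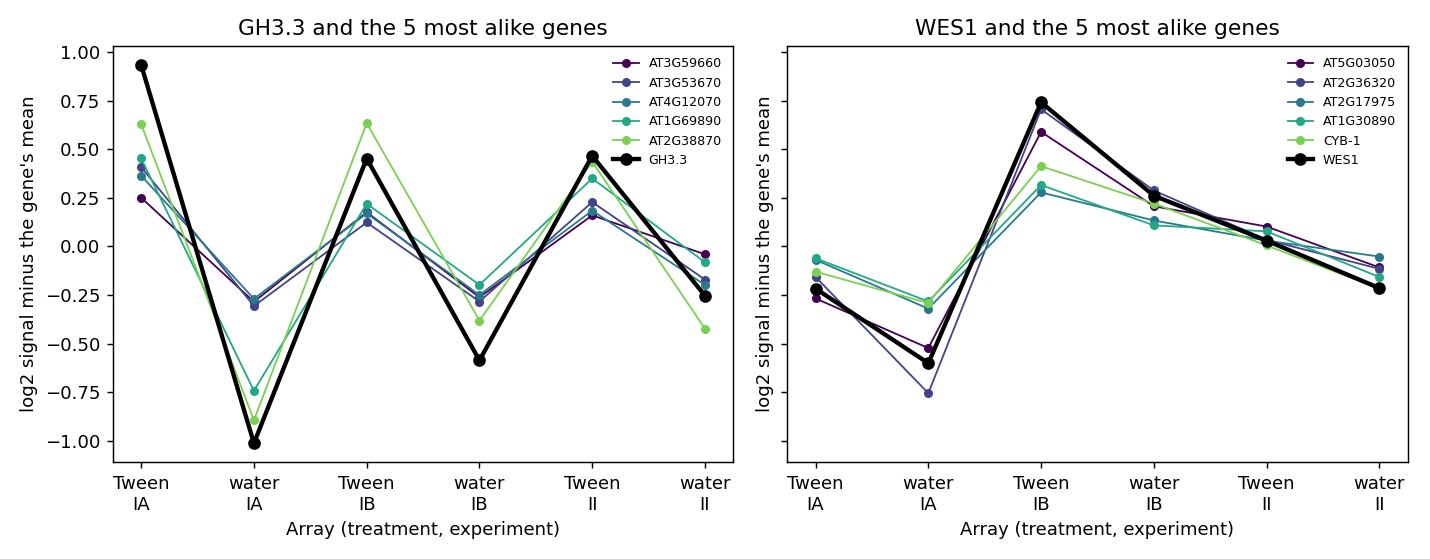
Log2 signal minus the gene's own mean over the 6 arrays, for GH3.3 and WES1 (black) and the 5 genes whose course had the highest Pearson correlation with each. The genes were chosen for these courses, so that the GH3.3 group alternates between Tween 20 and water and the WES1 group is highest in the IB pair.

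Tissue markers gave only a partial check of the leaf label, since the usable root markers, PYK10 and EXPA7, went different ways. RCA, the Rubisco activase of leaf chloroplasts, was at 3651.7 to 3955.5 units with Tween 20 and 3601.3 to 4176.4 units with water, the only 1 of 10 mesophyll markers with a usable probe set. PYK10, a beta-glucosidase of ER bodies used here as a root marker, was at 745.2 to 980.8 units with Tween 20 and 839.1 to 1126.8 units with water. These values lie far above the array means of 132.92 to 134.93 units, whereas EXPA7, a root hair expansin, did not exceed 17.1 units. The root list had 2 of 6 markers usable, the guard cell list 1 of 6, the vasculature list 1 of 5, and the epidermis and trichome list 0 of 5. The 4 tested markers, RCA, PYK10, FAMA and SWEET11, had log2 estimates between -0.17 and 0.11 over the 3 experiments. Within single pairs some log2 folds lay further from 0. PYK10 was at -0.05 (IA), -0.60 (IB) and 0.14 log2 (II). SWEET11, a sucrose transporter of the phloem and the vasculature marker, had 750.5, 522.4 and 930.5 units with Tween 20 in IA, IB and II, against 803.7, 520.1 and 688.8 units with water. Its log2 folds were -0.10, 0.01 and 0.43, and the value in II exceeded the 0.24 of WES1 there. FAMA, a transcription factor of guard cell differentiation, was at 0.04, -0.10 and 0.10 log2, with signals of 34.7 to 72.4 units with Tween 20 and 37.1 to 70.5 units with water. The part of these markers in the values of GH3.3 and WES1 was not tested.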

How the data were processed

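The authors deposited 1 table of linear signal intensities for 22810 probe sets on 6 arrays, from which 64 controls were left out. Per the submitters' processing notes they come from MAS5, with no version named. Array means of 132.92 to 134.93 units show a common scale, under which a shift of most transcripts in one direction would not be seen. Signals under 0.1 were set to 0.1 and log2 was taken. Probe sets at or above the 40th percentile of their array on at least 2 arrays, 14345 in all, were fitted in limma 3.58.1 (R 4.3.3, intensity trend, Benjamini-Hochberg at 0.05) with the experiment as a block. The code was also run on arrays simulated with independent noise. The outcome of that run is not given here, and such arrays do not stand for the real pairs. The pairing comes from the titles and design text, and Tween and water arrays of an experiment deviated together (r = 0.58, 0.71 and 0.71 in IA, IB and II). Alternatives changed the normalization, pseudocount, filter, variance trend or block, or left out an experiment.

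Names came from GEO's platform annotation, where 13513 probe sets had 1 gene, 503 several and 8730 none, and RefSeq's TAIR10.1 table. Of 160 entries in 8 auxin and salicylate lists, 148 had names that this table bears out. Genes named are up to 6 per list or the 4 with the largest statistic, and the 5 closest to each member. Members and lists were chosen with earlier results of these data known. limma's p-values set the Tween effect against the spread of its folds between these few pairs, moderated by that of all tested probe sets. Over the 3 experiments the fit had 2 residual and 5.03 prior degrees of freedom, and at 1 h it had 1 residual and 4.70 prior. A planned search of promoter motifs was not run.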

Additional observations from a re-analysis of the deposited data

How the results depend on the processing

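All 79 recalculations of the results for GH3.3 and WES1 kept their direction. Those that changed only the filter, the variance trend or the block cannot move the estimate, so their direction was fixed in advance. So was that of the runs that left out 1 experiment. Both genes were above water in every pair, GH3.3 by more than WES1, and both by less in II than in IA or IB. The fit over the 3 experiments without II also repeats the 1 h fit. Of all 79, 62 had a limma test, of which 61 stayed on their side of the threshold and 1 crossed it: without IB the GH3.3 estimate over the other experiments was 1.33 (limma adjusted p = 0.0175). Estimates over the 3 experiments ran between 0.88 and 1.49 for GH3.3 and between 0.30 and 0.43 for WES1 under all alternatives tried, and the limma adjusted p between 0.0175 and 0.445 for GH3.3 and between 0.213 and 1.00 for WES1. At 1 h the values with 1 pair alone were 1.04 and 1.95 for GH3.3 and 0.38 and 0.48 for WES1. The difference of their folds ran between 0.52 and 1.06, with exact sign-flip permutation p between 0.25 and 0.5 in 5 recalculations, none of which could reach 0.05. The count of passing probe sets over all genes, 161 over the 3 experiments, was 92 with median centring, 0 with no filter and 2 without the variance trend. It was 0 without the replicate block, that is, without pairing by experiment. With 1 experiment left out it was 0 without IA, 730 without IB and 0 without II. Where 0 passed, between 614 and 2567 had an unadjusted p under 0.05. At 1 h it was 0 in limma as reported and 105 with quantile normalization, 8 with median centring and 10 with the 60th percentile filter. The cause was not tested. With 1 of the pairs IA and IB left out, the 1 h and 2.5 h fits had no residual degrees of freedom and gave 12 values with no test, 4 of which repeat the reported 2.5 h value by construction. Dim signals limit the GH3.3 water value in IA and the untested list genes.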

Other observations

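Genes next to the pair on the chromosome were looked up after the values above had been seen. Of the 3 nearest protein-coding genes on each side in the TAIR10.1 gene table, 2 near GH3.3 and 5 near WES1 had a probe set of 1 gene. AT2G23200, the third gene from GH3.3 on one side, had 67.5, 87.9 and 73.9 units with Tween 20 in IA, IB and II, against 37.7, 44.6 and 38.1 units with water. Its signals did not overlap between treatments, as was found for 4.56% of tested probe sets. It was higher with Tween 20 by 0.93 ± 0.12 log2 (SE, limma adjusted p = 0.0282), and 1.02% of tested probe sets passed in that direction. GH3.3 had a larger estimate (1.24) but did not pass, and the difference between these genes was not tested. The gene directly beside GH3.3, AT2G23160, was too dim to test, at 9.1 to 12.2 units with Tween 20 and 6.9 to 12.0 units with water.

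Near WES1, AT4G27280 had 556.9 units with Tween 20 and 190.3 units with water in IA, 171.6 units with Tween 20 and 216.5 units with water in IB, and 268.8 units with Tween 20 and 174.8 units with water in II. Its log2 folds of 1.55, -0.34 and 0.62 differed in sign between the 1 h repetitions, and its limma adjusted p was 0.390. AT4G27270, directly beside WES1, was at 0.07, 0.28 and 0.35, with a limma adjusted p of 0.464. AT4G27240, on the other side of WES1, was at -0.58, 0.21 and -0.04, with a limma adjusted p of 0.776. AT4G27250 and AT4G27290 were too dim to test. IAA29, an Aux/IAA gene singled out here after its values were seen, was above water in all 3 pairs, as were 15.2% of tested probe sets. It had 11.5, 12.4 and 18.8 units with Tween 20 and 6.7, 8.2 and 9.0 units with water, all below the 40th percentile and not tested. At that brightness no fold can be read. The other untested early auxin-response genes, IAA20, IAA30, IAA34, LBD16 and LBD29, were each below water in at least 1 pair.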
